A study of Homo sapiens with 18 samples.

Results

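MDA-MB-436/tet-MUC1shRNA cells treated with DOX (doxycycline) to silence MUC1 were compared with the same cells treated with vehicle. The comparison was defined by treatment alone and used 6 of the 18 libraries in the series. MDA-MB-436 is a human triple-negative breast cancer (TNBC) line with a BRCA1 mutation. All 6 libraries came from cells that carried a MUC1 hairpin in the pLKO-tet-puro vector and had been selected in puromycin. In this vector DOX switches on the hairpin, which is processed into a small RNA that directs loss of its target mRNA. The vehicle group (n = 3) received 0.1% DMSO, and the DOX group (n = 3) received DOX at 500 ng/ml. The duration of DOX treatment for these libraries is not given in the sources used here. No DOX-treated group with a control hairpin entered the comparison, so an effect of DOX itself, of carrying a processed hairpin and of MUC1 silencing cannot be told apart, and every result is a difference between DOX and vehicle. Each group was a set of triplicate cultures of 1 line, so p-values measure the spread among such cultures.

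MUC1 encodes a mucin that is cleaved into an extracellular subunit and a transmembrane subunit, MUC1-C, which signals in carcinoma cells and is studied for its ties to inflammation, the epithelial-mesenchymal transition (EMT) and chromatin regulation. EMT is a shift from cells joined by E-cadherin junctions and keratin filaments to separate, vimentin-rich cells, and ZEB, SNAI and TWIST transcription factors repress epithelial genes during it. Type I IFN signals through STAT2 and IRF9 to genes with an IFN-stimulated response element (ISRE), while IFN-gamma signals through IRF1 among others. The study asked how MUC1-C and the chromatin remodeler subunit PBRM1 bear on such IFN genes.

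Levels are in TPM, the length-corrected abundance scaled to 1 fixed total per library, so values can be compared between genes. Fold changes are DOX over vehicle on the log2(TPM + 1) scale and carry their standard error (SE). On this scale the change of a gene under about 1 TPM is compressed. Genes "rose" or "fell" where limma's adjusted p was under 0.05, and were "called" where the log2 fold was also beyond 1 in either direction. Each library listed 12988 to 13188 genes at 1 TPM or more. Across genes, libraries of the same group correlated at 0.994 and libraries of different groups at 0.976 to 0.978, and the first principal component, with 70.4% of the variance, separated DOX from vehicle. Short noncoding RNAs took 12.0% to 12.65% of TPM in 5 libraries and 15.2% in vehicle library 3. Of 18 leukocyte and erythroid markers 2 passed the filter on low values and 6 were listed at 0 in every library, with a summed level of 110 to 117 TPM in vehicle and 107 to 117 TPM in DOX, nearly all from the lysosomal gene CD68. Of 10 endothelial markers only ESAM passed it, and their sum was 3.26 to 4.04 TPM in vehicle and 1.89 to 2.01 TPM in DOX.

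MUC1 (chromosome 1, 155185824 to 155192916, minus strand, GRCh38, GENCODE 29) was the targeted gene. MUC1 was at 6.37, 4.97 and 5.55 TPM in the 3 vehicle libraries and at 3.65, 2.71 and 2.73 TPM in the 3 DOX libraries. The groups did not overlap, and every DOX library lay below every vehicle library. The mean decreased from 5.63 ± 0.702 to 3.03 ± 0.538 TPM (SD, n = 3), so that DOX cells held 53.9% of the vehicle level, a log2 fold of -0.72 ± 0.13 (adjusted p = 0.00148). MUC1 was a sparsely sequenced gene here, with a mean normalized count of 36.5 per library in the authors' table against a median of 335.8 for the tested genes. Among the 13229 tested genes, 504 had a more negative fold than MUC1.

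DOX treatment was followed by increases in a set of epithelial genes and decreases in ZEB2, LRIG1 and several abundant mRNAs. In all, 177 of 13229 tested genes (1.34%) were called higher and 178 (1.35%) lower, of which 349 had no overlap between groups. By adjusted p alone 3566 genes rose (27.0%) and 3096 fell (23.4%). The groups were fully separate in 31.5% of tested genes with DOX higher and in 27.7% with DOX lower, so a small difference without overlap was common in these tightly agreeing cultures. The median log2 fold of all tested genes was 0.02. Among genes with a vehicle mean of at least 50 TPM, 8 were called higher and 38 lower. This choice by vehicle level keeps genes that fell from 50 TPM or more. It leaves out genes such as SFN that rose to that level from below, so these counts do not show a balance of directions. With a pseudocount of 0.1 in place of 1 the called genes numbered 269 and 353, and when only genes averaging 5 TPM or more were tested they numbered 102 and 109.

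**Figure D1:**
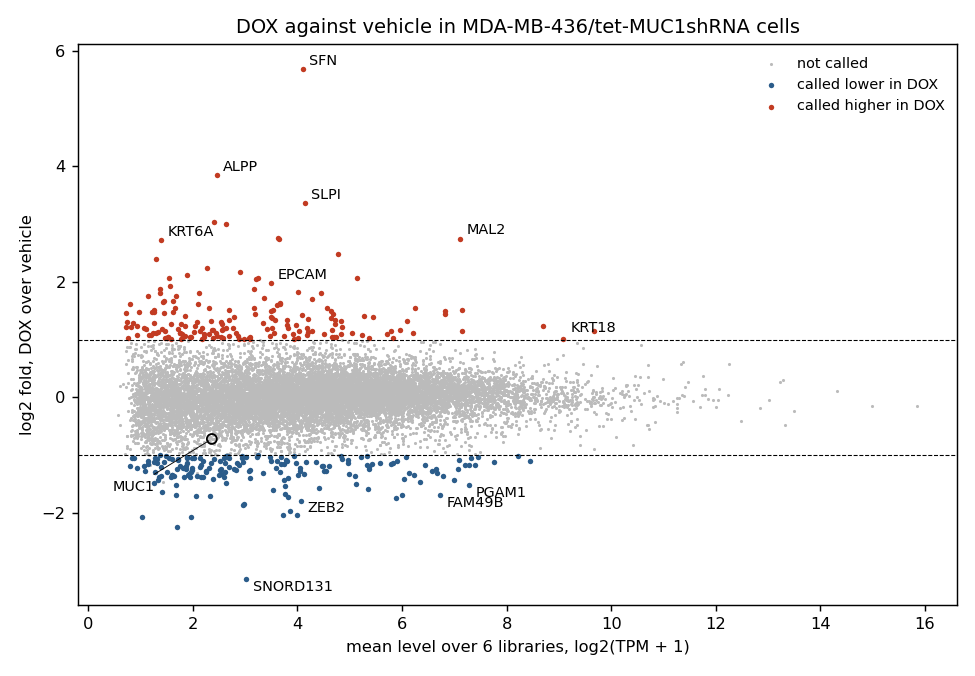
Log2 fold (DOX over vehicle) against the mean level over the 6 libraries, log2(TPM + 1), for the 13229 tested genes. Red points are the 177 genes called higher, blue points the 178 called lower, dashed lines mark log2 folds of 1 and -1, and the open circle is MUC1 at -0.72. SFN stands alone at the top with 5.68, and the lowest point is the small nucleolar RNA SNORD131 at -3.15, whose groups overlap.

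SFN (chromosome 1, 26863138 to 26864457, plus strand), which encodes stratifin, an epithelial adaptor protein and p53 target, had the largest increase of any tested gene. SFN was at 1.94, 1.06 and 1.28 TPM in vehicle and at 123, 126 and 117 TPM in DOX, close to absent in 1 group and abundant in the other (log2 fold 5.68 ± 0.12, adjusted p = 2.25e-08). Its promoter is shown because it had the largest fold, from 250 bases before to 50 bases after the RefSeq gene start (GRCh38.p14, chr1:26862899-26863198, plus strand). Capitals mark CACCTG, the E-box hexamer bound by ZEB and SNAI factors, searched on both strands and written as it stands on the printed strand.
SFN: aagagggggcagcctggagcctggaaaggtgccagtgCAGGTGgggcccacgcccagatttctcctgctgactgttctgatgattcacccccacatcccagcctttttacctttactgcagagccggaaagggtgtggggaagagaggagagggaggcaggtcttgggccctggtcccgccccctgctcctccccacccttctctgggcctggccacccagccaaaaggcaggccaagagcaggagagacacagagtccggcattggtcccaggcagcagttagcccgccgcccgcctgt
The hexamer began 213 bases before the start, and 5625 of 27305 RefSeq promoters of this length (20.6%) held at least 1 match. A match is a string of letters and does not show that a factor is bound.

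The other leading increases were mostly genes of glandular and stratified epithelia. ALPP, placental alkaline phosphatase, went from 0.0754, 1.17 and 0.309 TPM to 18.8, 19.9 and 20.7 TPM (3.84 ± 0.22), with the reservation that near-identical alkaline phosphatase genes can exchange reads. SLPI, a secreted inhibitor of leukocyte proteases, went from 4.41, 5.75 and 3.63 TPM to 52.2, 60.6 and 54.5 TPM (3.36 ± 0.12). All 3 DOX libraries of both genes lay far above the highest vehicle library. TSPAN1, a tetraspanin of epithelial surfaces, rose from 0.865 ± 0.113 to 14.3 ± 2.29 TPM (SD, n = 3). AREG, which encodes the EGF receptor ligand amphiregulin, rose from 1.29 ± 0.805 to 16.9 ± 3.13 TPM. MAL2, a raft protein of apical transport in polarized cells, was the most abundant of these genes and went from 52.2, 52.4 and 52.2 TPM to 351, 374 and 347 TPM (2.75 ± 0.04, adjusted p = 1.39e-09). MAP7, which binds epithelial microtubules, rose from 3.85 ± 0.388 to 31.4 ± 1.89 TPM and the stratified-epithelium regulator TRIM29 from 10.7 ± 1.02 to 63.7 ± 1.198 TPM. COL17A1, the transmembrane collagen of hemidesmosomes, was nearly unlisted in vehicle at 0.0381, 0.0694 and 0.0938 TPM and reached 4.76, 4.32 and 4.68 TPM. The remaining genes of the 15 largest increases were the zinc finger gene ZNF385A (2.76), KRT6A, described with the keratins, DIRAS3, a Ras-family gene with tumor suppressor activity (2.24), CPLX1, a regulator of vesicle fusion (2.16), FAM83A (2.12) and the mitochondrial inner membrane gene LETM2 (2.07). Absence of overlap between groups was part of the rule that picked these 15 genes and is not a result about them. TSPAN1, COL17A1, KRT6A and FAM83A were under 1 TPM in every vehicle library. They passed the filter through DOX alone, so they had to differ.

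The largest decreases fell in no single functional group. Among named genes whose groups did not overlap, INTS6L-AS1 led at -2.07 but was listed at 0 in all DOX libraries and rested on a mean normalized count of 1.17 per library, and RNF216-IT1 (-1.63) on 0.805, so neither is a firm result. Both lie in or opposite another gene, and whether counting used the strand is not stated. ESM1, a secreted proteoglycan, went from 6.27, 9.59 and 5.700 TPM to 1.66, 0.374 and 0.916 TPM (-2.07 ± 0.25). UBE2Q2, a ubiquitin-conjugating enzyme with related copies elsewhere in the genome, went from 32.9, 32.1 and 29.6 TPM to 7.58, 5.66 and 7.57 TPM (-2.04 ± 0.10). LRIG1 (chromosome 3, 66378797 to 66501263, minus strand), a membrane protein that promotes turnover of EGF receptors, went from 27.99, 29.1 and 25.99 TPM to 6.37, 6.53 and 6.09 TPM (-1.97 ± 0.07, adjusted p = 1.57e-07). In all 3 genes the highest DOX library was far under the lowest vehicle library. FAM49B, a regulator of Rac1 and actin dynamics, was the most abundant, falling from 191 ± 10.9 to 58.2 ± 0.266 TPM (-1.69 ± 0.05). CXCL14, a chemokine made by epithelia, fell from 13.9 ± 1.13 to 3.17 ± 0.655 TPM, and MAL, a raft protein related to the MAL2 that rose, from 23.5 ± 3.91 to 6.58 ± 0.509 TPM. IGFN1 (-2.04), SHISA2 (-1.87), SHISAL1 (-1.72) and the noncoding RNAs LINC01291 (-1.75), LINC00968 (-1.71) and LINC01085 (-1.71) also fell, and ZEB2 is described with the EMT factors.

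Epithelial adhesion genes rose in MDA-MB-436/tet-MUC1shRNA cells treated with DOX. Of 34 epithelial junction and surface genes, 25 passed the filter, of which 20 rose and 1 fell (2 without DOX library 1) and 7 were called higher. Over all tested genes 27.0% rose, 23.4% fell and 1.34% were called higher. CDH1 and SPINT1, which are among the called members, were under 1 TPM in every vehicle library and passed the filter through DOX alone, so they had to differ, and the counts are descriptions that carry no test. Their median log2 fold was 0.75, beside 0.02 over all tested genes. CDH1 (chromosome 16, 68737225 to 68835548, plus strand), E-cadherin, was at 0.0441, 0.241 and 0.362 TPM in vehicle and at 3.06, 3.34 and 2.83 TPM in DOX (1.75 ± 0.16, adjusted p = 2.75e-05). CDH1 thereby remained a low transcript even in DOX cells, although the groups were far apart. EPCAM (chromosome 2, 47345158 to 47387601, plus strand), an epithelial adhesion molecule, went from 4.64, 5.896 and 3.698 TPM to 21.5, 19.95 and 22.5 TPM (1.98 ± 0.13). DSP, desmoplakin, which ties keratins to desmosomes, was already expressed in vehicle at 22.5, 22.8 and 22.6 TPM and reached 65.00, 58.4 and 61.9 TPM (1.41 ± 0.05). PKP3, a desmosomal plakophilin, rose from 15.5 ± 1.03 to 40.9 ± 1.64 TPM (1.35 ± 0.06). Further members that rose were the tight junction genes F11R (1.33), OCLN (0.86), MARVELD2 (0.84) and CLDN1 (0.67), the protease inhibitors SPINT1 (1.29) and SPINT2 (1.304) and the plakoglobin gene JUP (0.97). CLDN3, a tight junction claudin, went the other way, from 8.13, 6.85 and 10.3 TPM to 3.17, 4.07 and 3.33 TPM (-1.05 ± 0.14), and CLDN4 did not pass the test (-0.43 ± 0.19). The members named beyond the leading 4 were chosen after their values were seen. In bulk libraries a larger share of epithelial-like cells and more RNA per cell cannot be told apart.

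The DSP promoter (GRCh38.p14, chr6:7541421-7541720, plus strand) is shown as a junction gene whose window held CACCTG more than once, with the matches in capitals on the printed strand.
DSP: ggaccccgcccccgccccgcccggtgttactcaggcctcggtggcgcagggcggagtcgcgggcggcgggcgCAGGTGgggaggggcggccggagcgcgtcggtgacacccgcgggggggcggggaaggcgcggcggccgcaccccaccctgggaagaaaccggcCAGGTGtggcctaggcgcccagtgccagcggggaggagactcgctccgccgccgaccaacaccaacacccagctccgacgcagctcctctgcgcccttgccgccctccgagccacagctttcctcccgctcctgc
The 2 matches began 178 and 85 bases before the start. A comparison of this motif between gene groups is void, since only 9933 of 13229 tested genes, under 80%, had a promoter in the table.

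Keratins, the intermediate filaments of epithelial cells, rose in 6 of 8 tested members and fell in 0 (1 with median scaling or without vehicle library 2), with 3 called higher and a median log2 fold of 0.83, where 27.0% of all tested genes rose and 1.34% were called higher. KRT6A and KRT17 were under 1 TPM in every vehicle library and passed the filter through DOX alone, so they had to differ and the counts carry no test. KRT18 (chromosome 12, 52948871 to 52952901, plus strand) and KRT8 (chromosome 12, 52897187 to 52949954, minus strand) form the filament pair of simple epithelia. KRT18 was at 385, 373 and 374 TPM in vehicle and 784, 747 and 768 TPM in DOX (1.02 ± 0.03), and KRT8 at 476, 457 and 465 TPM and 916, 878 and 905 TPM (0.95 ± 0.03). Thus both partners were abundant in both groups and rose by similar folds. Their annotated spans overlap on opposite strands, so some reads could be exchanged. KRT6A, a keratin of stressed stratified epithelium, was at 0, 0.0851 and 0 TPM in vehicle and 6.64, 5.997 and 4.804 TPM in DOX (2.72 ± 0.15), and close copies of KRT6A exist. The basal keratin KRT15 rose from 1.74 ± 0.723 to 5.62 ± 0.655 TPM. Of the untested keratins, KRT5, KRT14 and KRT19 stayed at or under 0.35 TPM in every library. KRT16 was at 0.282, 0.257 and 0.463 TPM in vehicle and 0.770, 1.76 and 0.659 TPM in DOX, too low for a firm direction. These untested keratins were named after their values were seen. Of 30 secretory epithelial genes 7 passed the filter, of which 6 rose, 0 fell (1 without DOX library 3), 5 were called and the median log2 fold was 1.45. Besides SLPI these included LCN2, the iron-scavenging lipocalin (0.561 ± 0.438 to 3.79 ± 0.424 TPM, 1.65 ± 0.20), on a mean normalized count of only 6.68, ANXA3, a membrane-binding annexin (67.8 ± 2.804 to 187 ± 4.23 TPM, 1.45 ± 0.04), and ELF3. A member that passed the filter through DOX alone had to differ, so this count describes expressed members and carries no test.

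EMT transcription factors moved in both directions. ZEB2 (chromosome 2, 144364364 to 144524583, minus strand) was at 30.3, 31.8 and 28.8 TPM in vehicle and at 8.399, 8.07 and 7.64 TPM in DOX, the largest decrease among them (-1.79 ± 0.06, adjusted p = 2.04e-07). ZEB1 (chromosome 10, 31318495 to 31529814, plus strand) went from 10.5, 11.01 and 9.198 TPM to 4.96, 5.25 and 5.27 TPM (-0.86 ± 0.09, adjusted p = 5.45e-05). Both ZEB genes fell with no overlap between groups. SNAI2, which encodes Slug, another repressor of CDH1, rose in contrast, from 13.96, 16.05 and 13.9 TPM to 32.03, 32.7 and 32.00 TPM (1.09 ± 0.06), and so did SNAI1 (0.31 ± 0.08). ELF3, an epithelial ETS factor, rose from 3.35, 3.98 and 3.76 TPM to 16.2, 16.5 and 16.1 TPM (1.88 ± 0.08). Of 12 tested factors 3 rose and 3 fell, the last being PRRX1 (-0.35 ± 0.09), with a median log2 fold of -0.09, shares near those of all tested genes. The number lower was 5 with eBayes run without a trend and 6 with no filter. TWIST1 (-0.15 ± 0.08) and TWIST2 (-0.02 ± 0.11) did not pass the test. SNAI3, the remaining SNAI gene, did not pass the filter, at 0.988, 0.514 and 0.464 TPM in vehicle and 0.221, 0.353 and 0 TPM in DOX. The epithelial regulators GRHL2 and OVOL1 were listed at 0 in all 6 libraries, and the epithelial splicing factor ESRP1 did not exceed 0.135 TPM, and these untested genes were looked up after seeing the data.

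Mesenchymal and matrix genes moved in both directions. Of 33 tested, 16 fell (48.5%) and 9 rose (27.3%), with a median log2 fold of -0.13 and 3 called lower, where 23.4% of all tested genes fell, 27.0% rose and 1.35% were called lower. COL6A1, a collagen VI chain, went from 40.4, 40.2 and 41.9 TPM to 19.6, 18.2 and 18.9 TPM (-1.07 ± 0.05). PLAU, urokinase, fell from 249 ± 7.05 to 121 ± 6.29 TPM (-1.04 ± 0.04) and COL3A1 from 2.62 ± 0.365 to 0.726 ± 0.0771 TPM (-1.06 ± 0.14). COL3A1 was under 1 TPM in every DOX library and passed the filter through vehicle alone, so it had to differ. FSTL1, a secreted glycoprotein, fell from 1102 ± 19.8 to 594 ± 15.3 TPM (-0.89 ± 0.03). VIM, vimentin, remained one of the abundant mRNAs of these cells, falling from 1807 ± 53.9 to 1025 ± 38.7 TPM (-0.82 ± 0.04). CDH2, N-cadherin, fell by less (-0.24 ± 0.04). In the other direction, COL4A1 (0.58 ± 0.08) and COL4A2 (0.69 ± 0.06) of basement membranes, FN1 of fibronectin (0.41 ± 0.03) and ACTA2 of smooth muscle actin (0.42 ± 0.11) rose.

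Of the 9 genes followed by the study, 8 passed the filter, 4 fell and 1 rose (2 without vehicle library 2). Over all tested genes 23.4% fell and 27.0% rose. For MDA-MB-436 cells the paper reported that MUC1-C silencing lowered WARS transcript and protein, and that it lowered ISG15 expression. Here WARS fell but ISG15 rose, opposite to the paper's report, and the reason was not tested. The study also drew on RNA-seq of MUC1-silenced MDA-MB-436 cells in reporting common IRF1 target genes. This list is therefore not independent evidence of a direction. PBRM1 (chromosome 3, 52545352 to 52685917, minus strand), the chromatin-targeting subunit of PBAF, was at 23.9, 24.7 and 21.6 TPM in vehicle and 15.6, 14.8 and 14.97 TPM in DOX (-0.60 ± 0.06, adjusted p = 8.53e-05). WARS (chromosome 14, 100333788 to 100376805, minus strand), an IFN-gamma-induced enzyme that charges tRNA with tryptophan, went from 114, 109 and 107 TPM to 43.3, 46.5 and 42.2 TPM (-1.302 ± 0.05, adjusted p = 2.38e-07). DDX58, the RNA sensor RIG-I, went from 20.7, 20.3 and 21.00 TPM to 11.9, 13.4 and 13.2 TPM (-0.65 ± 0.06). These 3 genes and MUC1 showed no overlap between groups. ISG15 (chromosome 1, 1001138 to 1014540, plus strand), whose product is conjugated to proteins much as ubiquitin is, was higher in DOX, at 63.2, 50.98 and 65.96 TPM in vehicle and 96.7, 101 and 85.4 TPM in DOX (0.65 ± 0.10, adjusted p = 0.000526). IRF1, the IFN-gamma effector, was at 5.25, 4.52 and 4.45 TPM and 4.95, 4.57 and 5.14 TPM with overlapping groups (0.04 ± 0.10, adjusted p = 0.773). IFIH1, the RNA sensor MDA5 (0.06 ± 0.09, adjusted p = 0.568), also did not pass the test, and without vehicle library 1 its fold was -0.01. IDO1, which degrades tryptophan, was listed at 0 in all 6 libraries.

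Type I IFN-stimulated genes did not move as a block. Of 65 listed, 49 passed the filter, 13 rose and 14 fell, shares near the 27.0% and 23.4% of all tested genes, and 0 were called in either direction. Their median log2 fold was 0.06. The members that rose most were PARP9 (14.4, 14.6 and 13.99 to 26.6, 25.8 and 23.6 TPM, 0.78 ± 0.06), its ubiquitin ligase partner DTX3L (0.60 ± 0.04), the STAT2 partner IRF9 (19.4, 16.1 and 17.8 to 28.5, 30.04 and 30.4 TPM, 0.71 ± 0.07) and ISG15. The members that fell most were IFI44 (7.82, 5.597 and 7.11 to 1.96, 3.49 and 3.43 TPM, -1.0 ± 0.18, adjusted p = 0.00149), IFIT3, which holds antiviral IFIT complexes together (6.74, 3.897 and 4.81 to 2.600, 1.85 and 2.78 TPM, -0.84 ± 0.18, adjusted p = 0.00422), and DDX58. In each of these the groups did not overlap. STAT2 itself did not pass the test (-0.03 ± 0.06). MX1 did not pass the filter and stayed under 0.77 TPM. Of the 5 tested genes of the signature that links IFN signaling to DNA damage resistance, IFI44, IFIT3 and IFIT1 fell and ISG15 rose. The IFIT1 fold (-0.39 ± 0.14, adjusted p = 0.046) lost significance when any of the vehicle libraries 1 and 3 or the DOX libraries 2 and 3 was left out, at adjusted p from 0.0835 to 0.137.

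The promoters of ISG15, which rose, and of IFIT3 and IFI44, which fell, are shown to set the motif letters of ISGs that went in opposite directions side by side (GRCh38.p14; chr1:1013247-1013546, plus strand; chr10:89327747-89328046, plus strand; chr1:78649539-78649838, plus strand). Capitals mark the ISRE core searched, which is GAAA, any 2 bases and GAAA, on both strands, as it reads on the printed strand.
ISG15: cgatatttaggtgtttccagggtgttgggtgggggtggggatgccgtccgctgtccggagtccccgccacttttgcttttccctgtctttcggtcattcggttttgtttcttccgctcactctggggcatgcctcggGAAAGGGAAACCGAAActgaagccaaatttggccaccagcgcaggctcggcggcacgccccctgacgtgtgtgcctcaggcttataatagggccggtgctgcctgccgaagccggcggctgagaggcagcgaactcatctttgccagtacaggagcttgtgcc
IFIT3: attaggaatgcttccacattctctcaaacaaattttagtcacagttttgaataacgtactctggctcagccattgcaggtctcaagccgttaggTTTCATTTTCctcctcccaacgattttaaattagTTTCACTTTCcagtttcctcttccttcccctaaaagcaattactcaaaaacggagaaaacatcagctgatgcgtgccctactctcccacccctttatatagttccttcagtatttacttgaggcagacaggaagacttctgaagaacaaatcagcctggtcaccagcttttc
IFI44: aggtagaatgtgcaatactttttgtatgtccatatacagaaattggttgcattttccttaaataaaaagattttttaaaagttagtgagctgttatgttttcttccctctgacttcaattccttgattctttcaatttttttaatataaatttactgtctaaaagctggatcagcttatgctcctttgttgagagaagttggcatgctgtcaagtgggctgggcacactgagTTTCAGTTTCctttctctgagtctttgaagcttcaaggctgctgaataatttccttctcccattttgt
In ISG15 the 2 matches overlap, beginning 113 and 107 bases before the start, in IFIT3 they began 156 and 122 bases before it, and IFI44 had 1 match beginning 18 bases before it. The motif was in 996 of 27305 RefSeq promoters (3.65%). It was present in promoters of ISGs that rose and of ISGs that fell, and shares by direction are not compared, since under 80% of the genes that fell had a promoter in the table.

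**Figure D2:**
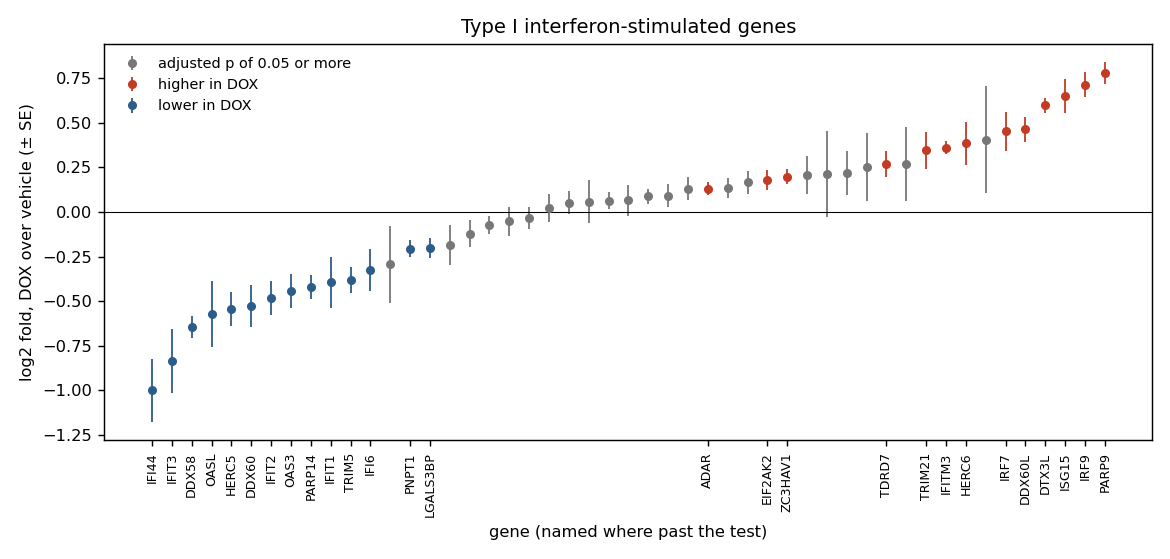
Log2 fold with SE (DOX over vehicle) of the 49 tested type I IFN-stimulated genes, sorted, with those that rose in red, those that fell in blue and those not past the test in grey and unnamed. The values run without a gap from IFI44 at -1.0 to PARP9 at 0.78, with 14 genes lower and 13 higher.

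NF-kB targets included several called decreases. Of 26 tested NF-kB targets and cytokines, 13 fell, 4 of them called, and 5 rose, or 3 without DOX library 1 or DOX library 2 or with eBayes run without a trend, with a median log2 fold of -0.14. Over all tested genes 23.4% fell, 27.0% rose and 1.35% were called lower. BIRC3, an inhibitor of apoptosis, went from 6.19, 7.14 and 6.03 TPM to 2.25, 2.12 and 1.86 TPM (-1.28 ± 0.11). CSF1, the macrophage growth factor, went from 30.7, 34.9 and 33.5 TPM to 14.1, 14.2 and 13.6 TPM (-1.18 ± 0.06). CXCL8, a neutrophil chemokine, went from 5.296, 6.39 and 5.56 TPM to 2.02, 2.77 and 1.73 TPM (-1.099 ± 0.14), and NFKBIE, an inhibitor of NF-kB, fell from 5.82 ± 1.28 to 1.99 ± 0.116 TPM. All 4 were lower in every DOX library. STAT3 targets rose in 9 and fell in 4 of 18 (median 0.15), led by SOCS3, a feedback inhibitor of cytokine receptors (9.08, 10.3 and 10.6 to 24.2, 23.5 and 22.7 TPM, 1.15 ± 0.07), the transcription factor CEBPD (0.76 ± 0.10), BCL3 (0.73 ± 0.05) and JUNB (0.63 ± 0.05). Of 21 IFN-gamma response genes, 6 rose and 3 fell (median -0.08). WARS and SOCS3 were the called members, while IFI30, a lysosomal thiol reductase, rose from 70.2 ± 2.48 to 139 ± 14.5 TPM (0.97 ± 0.07) and IRF8 fell (-0.53 ± 0.13). MHC class I and peptide loading genes fell in 5 of 15 and rose in 0, or 1 without vehicle library 3 or DOX library 1 (median -0.10), with TAPBP (-0.38 ± 0.06), HLA-B (-0.35 ± 0.07) and CALR (-0.23 ± 0.03) among those that fell, and close HLA copies can exchange reads. HLA-DMA was the only tested MHC class II gene (-0.08 ± 0.14, adjusted p = 0.68). CD14, a monocyte marker that carcinoma cells can also express, rose from 4.34 ± 0.377 to 9.03 ± 1.91 TPM (0.89 ± 0.14).

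Chromatin regulators moved in both directions by small folds. SWI/SNF subunits rose in 10 of 28, or 6 without DOX library 1 or DOX library 3, and fell in 10, with 0 called and a median of -0.05 (35.7% in each direction, where 27.0% of all tested genes rose and 23.4% fell). PBRM1 had the largest fold, followed by DPF1 (0.59 ± 0.10), SMARCD1 (71.1, 68.1 and 72.7 to 48.1, 48.5 and 46.5 TPM, -0.56 ± 0.04) and SMARCD2 (26.04, 30.4 and 28.1 to 40.8, 40.97 and 39.6 TPM, 0.51 ± 0.06). SMARCD1 and SMARCD2 encode alternative subunits of the same position in the complex and went in opposite directions. Of 31 Polycomb and DNA methyltransferase genes 7 rose and 7 fell, or 11 with quantile normalization (median -0.01). DNMT3A, a de novo DNA methyltransferase, went from 8.08, 7.71 and 8.27 TPM to 4.13, 3.501 and 3.89 TPM (-0.90 ± 0.09), and DNMT3B, the other de novo enzyme, from 9.47, 9.99 and 8.73 TPM to 4.34, 4.43 and 5.95 TPM (-0.82 ± 0.11). BMI1, a Polycomb repressive complex subunit, went from 3.35, 3.23 and 4.18 TPM to 1.76, 1.77 and 1.73 TPM (-0.73 ± 0.12), and PHC3 fell as well (-0.41 ± 0.07). The maintenance enzyme DNMT1 (-0.09 ± 0.04) and the histone methyltransferase EZH2 (0.03 ± 0.04) did not pass the test. Stem cell associated genes rose in 6 and fell in 5 of 12, with NOTCH3 (-0.99 ± 0.10) and NOTCH1 (-0.79 ± 0.07) lower and ITGA6, an integrin chain, higher (163 ± 2.75 to 282 ± 7.14 TPM, 0.79 ± 0.03).

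Replication-dependent histone genes, most of whose mRNAs end in a stem-loop and not a poly(A) tail, fell in 42 of 54 and rose in 1, against 23.4% and 27.0% of all tested genes, with 5 called lower and a median log2 fold of -0.44. HIST1H3A, a histone H3 gene, went from 506, 509 and 512 TPM to 264, 253 and 201 TPM (-1.097 ± 0.09). The linker histone gene HIST1H1D went from 31.9, 37.5 and 38.1 TPM to 9.78, 14.5 and 10.4 TPM (-1.57 ± 0.13), HIST1H3E fell from 86.2 ± 2.54 to 39.8 ± 3.86 TPM, and HIST1H1A (-1.52 ± 0.37) had a mean normalized count of 7.66. The libraries were prepared by poly(A) selection, which captures such mRNAs incompletely, near-identical copies can exchange reads, and the part of either in this result was not tested. Cell cycle and mitosis genes fell in 18 and rose in 6 of 45 (median -0.11), with the spindle gene ASPM (111 ± 4.38 to 67.6 ± 6.62 TPM, -0.72 ± 0.07), the checkpoint gene BUB3 (-0.44 ± 0.03) and the centromeric histone CENPA (-0.43 ± 0.07) lower and E2F2 (0.44 ± 0.07) higher. Of 42 DNA replication genes 15 rose and 5 fell, or 8 with quantile normalization or array weights, and 22 did not pass the test (median 0.06), where 27.0% of all tested genes rose and 23.4% fell. They included GINS1 (0.51 ± 0.05) and RPA3 (0.49 ± 0.06) higher and RFC1 (-0.46 ± 0.04) and POLA1 (-0.43 ± 0.06) lower. Double-strand break repair genes rose in 11 and fell in 9 of 49, or 5 lower without vehicle library 2, with 0 called and a median of -0.00. RBBP8, which starts end resection (0.58 ± 0.07), the checkpoint kinase CHEK2 (0.56 ± 0.08) and PARP1 (91.2 ± 3.05 to 123 ± 1.12 TPM, 0.42 ± 0.04) rose. RAD51D also rose (0.38 ± 0.13, adjusted p = 0.0429), but its adjusted p lay between 0.0606 and 0.114 without any 1 of the libraries vehicle 2, vehicle 3, DOX 1, DOX 2 or DOX 3. Targets of p53 rose in 10 and fell in 6 of 27 (median 0.09), with the cell cycle inhibitor CDKN1A (24.2 ± 0.558 to 39.8 ± 2.62 TPM, 0.69 ± 0.06) and BTG2 (0.90 ± 0.10) higher and TP53INP1 (3.84 ± 0.491 to 0.847 ± 0.0945 TPM, -1.39 ± 0.13) lower. TP53INP1 was under 1 TPM in every DOX library and passed the filter through vehicle alone, so it had to differ. SFN, at 5.68, lay far above every other member of the p53 list.

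Many mitochondrial genes encoded in the nucleus rose by small amounts. Respiratory chain genes rose in 37 of 52 and fell in 0, with 15 not past the test, 0 called and a median log2 fold of 0.20, where 27.0% of all tested genes rose and 23.4% fell. Among complex I subunits, NDUFA2 went from 64.95, 69.4 and 63.6 TPM to 113, 116 and 110.1 TPM (0.77 ± 0.04), NDUFA5 rose from 20.1 ± 1.41 to 30.8 ± 0.5398 TPM (0.59 ± 0.06) and NDUFB6 by 0.44 ± 0.05. COX5A of cytochrome oxidase rose by 0.50 ± 0.06. Mitochondrial ribosomal protein genes rose in 31 and fell in 4 of 54, or 7 with quantile normalization (median 0.17), with MRPL33 (0.44 ± 0.05) and MRPL22 (0.39 ± 0.07) leading the increases. Mitochondrial chaperones and proteases rose in 7 and fell in 1 of 14 (median 0.12), among them DNAJA3 (0.31 ± 0.06), HSPE1 (0.31 ± 0.04), PMPCB (0.21 ± 0.04) and CLPP (0.26 ± 0.07). Without any 1 of the libraries DOX 1, DOX 2 or vehicle 2 the number lower was 0, and the adjusted p of CLPP was 0.0556 without DOX library 2. DOX is an antibiotic that inhibits mitochondrial translation, and no DOX-treated control allows its part here to be told apart. The mRNAs of the mitochondrial genome were not analysed here (0 of 13 matched). Cytosolic ribosomal protein genes had 9 of 78 higher, or 4 without DOX library 1 and 5 without DOX library 3, 16 lower, or 10 without vehicle library 1, and a median of -0.03.

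Stress and metabolic genes moved in both directions. The counts below stand beside shares of 27.0% that rose and 23.4% that fell over all tested genes. The share of fatty acid genes that rose (31.2%) and of ATF4 targets that fell (27.3%) lay near these. NRF2 targets, which handle oxidants, fell in 13 and rose in 4 of 24 (median -0.26). HMOX1, heme oxygenase, went from 55.6, 54.1 and 52.4 TPM to 19.7, 23.4 and 18.2 TPM (-1.37 ± 0.08), TXNRD1 fell from 293 ± 10.8 to 189 ± 3.07 TPM (-0.63 ± 0.04), and the aldo-keto reductase AKR1C1 (-1.12 ± 0.16, with near-identical copies) and the exporter ABCC2 (-0.97 ± 0.09) fell as well. Metallothionein and zinc genes, which bind or export metals, rose in 6 of 6 tested (13 listed; median 0.70), with MT1F from 34.9, 38.9 and 61.4 TPM to 128, 131 and 128 TPM (1.54 ± 0.17), MT1E (0.91 ± 0.06), MT1X (0.86 ± 0.05) and the zinc sensor MTF1 (0.53 ± 0.06), and the MT1 genes are close copies of each other. ATF4 targets rose in 14 and fell in 9 of 33 (median 0.11), with CHAC1 (4.57 ± 0.4596 to 10.2 ± 1.18 TPM, 1.01 ± 0.10), DDIT4 (0.93 ± 0.09) and ATF3 (0.73 ± 0.08) higher and ATF5 (-0.90 ± 0.10) lower. Unfolded protein response genes fell in 8 and rose in 3 of 22, with the chaperone HSP90B1 (-0.42 ± 0.03) and SEL1L (-0.39 ± 0.05) lower. ERN1 fell (-0.35 ± 0.10), with an adjusted p of 0.0568 without DOX library 1, and SDF2L1 rose (0.30 ± 0.11), with adjusted p from 0.0789 to 0.128 without vehicle library 3, DOX library 1 or DOX library 2. Cholesterol synthesis genes fell in 12 and rose in 4 of 24 (median -0.13), with TM7SF2 (-0.74 ± 0.15), INSIG1 (-0.50 ± 0.04), MSMO1 (-0.42 ± 0.05) and HSD17B7 (-0.38 ± 0.07) the largest. Fatty acid genes split 6 lower and 5 higher of 16, with the desaturases FADS1 (194 ± 7.44 to 119.7 ± 8.35 TPM, -0.70 ± 0.05) and FADS2 (-0.28 ± 0.06) and the citrate lyase ACLY (-0.28 ± 0.03) lower and the regulator SREBF1 (0.40 ± 0.06) higher. Hypoxia and glycolysis genes fell in 13 and rose in 7 of 32 (median -0.06), with ADM (-0.65 ± 0.07) lower and the glucose transporter SLC2A1 higher (240.4 ± 8.31 to 392 ± 6.14 TPM, 0.70 ± 0.04).

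In several of these families 1 or 2 members had folds well below those of the other members. Among aminoacyl-tRNA synthetases, which charge tRNAs, 12 of 20 rose and 4 fell, or 2 without any 1 of the libraries vehicle 1, vehicle 2, DOX 1 or DOX 2, with a median log2 fold of 0.16. Beside these counts, 27.0% of all tested genes rose and 23.4% fell. WARS and DARS were the exceptions among the synthetases. DARS, the aspartyl enzyme, went from 58.7, 63.6 and 56.3 TPM to 25.7, 25.3 and 27.03 TPM (-1.16 ± 0.06), while AARS (0.54 ± 0.05) and YARS (0.33 ± 0.04) rose. In the glycolysis list PGAM1, phosphoglycerate mutase, went from 267, 265 and 254 TPM to 91.1, 89.2 and 91.8 TPM (-1.52 ± 0.04, adjusted p = 4.49e-08), and the next lowest member was LDHA, lactate dehydrogenase, at 908, 906 and 881 TPM and 512, 504 and 499 TPM (-0.83 ± 0.03). PGAM1 has processed copies that can take its reads. Among mitochondrial ribosomal genes MRPL42 (83.5 ± 5.55 to 49.1 ± 1.93 TPM, -0.75 ± 0.06) and MRPS35 (153 ± 10.7 to 106 ± 3.67 TPM, -0.53 ± 0.05) fell while 31 members rose. RPL17 was the lowest cytosolic ribosomal gene (3.504 ± 0.5300 to 1.79 ± 0.497 TPM, -0.70 ± 0.16), on a mean normalized count of 12.7 and with an overlapping readthrough gene, and RPL7 (-0.39 ± 0.04) and RPLP1 (-0.31 ± 0.04) followed, while RPS21 rose (0.26 ± 0.05). Each of these decreases was present in all 3 DOX libraries without overlap.

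**Figure D3:**
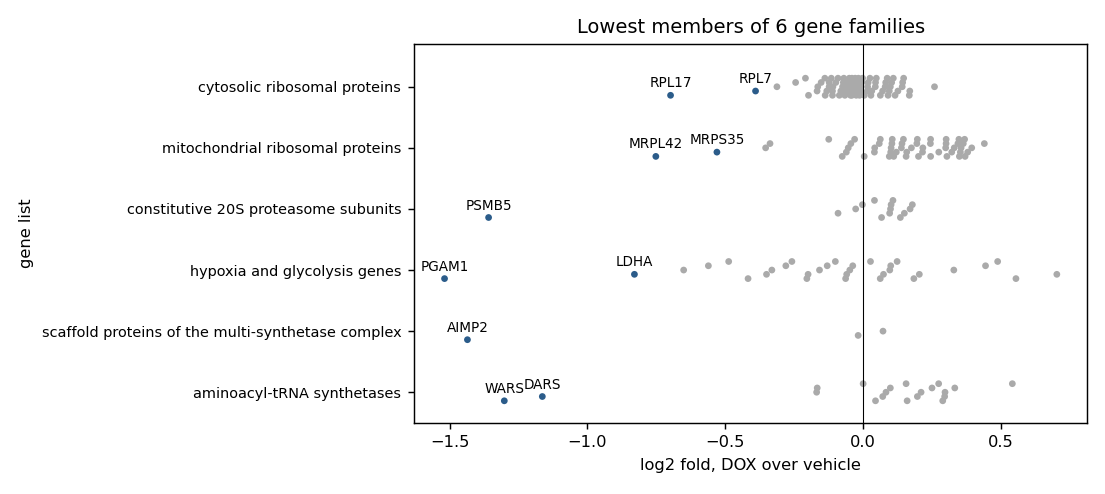
Log2 folds (DOX over vehicle) of all tested members of 6 gene families, 1 point per gene, with the named members in blue. WARS, DARS, AIMP2, PGAM1 and PSMB5 lie below -1 and are the lowest members of their lists, and MRPL42, MRPS35 and RPL17 lie between -0.75 and -0.53.

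Receptor and growth factor genes showed opposite changes at the top of their lists. The counts in this paragraph stand beside 27.0% of all tested genes that rose and 23.4% that fell. GALNT3, MMP3 and the breast marker CDH1 passed the filter through DOX alone, and NRG2 through vehicle alone. These genes had to differ, so the counts that hold them carry no test. In the EGF receptor family and ligands 1 of 13 rose, which was AREG, and 6 fell, among them LRIG1, NRG2 (-0.87 ± 0.16) and the ligand EREG (54.2 ± 4.19 to 37.95 ± 2.44 TPM, -0.50 ± 0.07), with a median of -0.17. EGFR itself fell slightly (-0.35 ± 0.04). ERK feedback and immediate early genes rose in 8 and fell in 7 of 24, with EGR1 (19.2 ± 3.24 to 9.37 ± 0.923 TPM, -0.96 ± 0.12), FOSL1 (589 ± 24.1 to 361 ± 9.85 TPM, -0.70 ± 0.04) and PHLDA1 (-0.70 ± 0.05) lower. TGF-beta genes rose in 7 and fell in 7 of 22. The receptor TGFBR2 went from 60.4, 56.5 and 56.5 TPM to 114, 122 and 106 TPM (0.97 ± 0.06), ID3 (1.55 ± 0.20) and the latent complex gene LTBP3 (1.21 ± 0.06) rose, and the feedback inhibitor PMEPA1 fell (18.8 ± 0.354 to 7.99 ± 0.993 TPM, -1.15 ± 0.09). YAP targets rose in 7 and fell in 7 of 20, with NT5E, the ecto-enzyme CD73 (231 ± 12.2 to 102 ± 5.71 TPM, -1.17 ± 0.05), PTPN14 (-1.14 ± 0.04) and FOXF2 (-0.93 ± 0.08) lower and NUAK2 (1.05 ± 0.08) higher. Matrix metalloproteases and inhibitors fell in 5 and rose in 2 of 13, with MMP2 (-0.83 ± 0.09) and TIMP2 (-0.41 ± 0.04) lower and MMP3 (1.11 ± 0.15) and MMP1 (0.54 ± 0.16) higher, and MMP1 did not pass without vehicle library 2, DOX library 1 or DOX library 2 (adjusted p from 0.0674 to 0.0797). Of the 16 mucins listed 3 passed the filter, and only MUC1 passed the test, with MUC16 at -0.04 ± 0.13 and CD164 at 0.00 ± 0.04. Enzymes of O-glycosylation, which build mucin-type sugars, rose in 9 and fell in 3 of 16. B3GNT3 went from 4.65, 2.72 and 3.48 TPM to 16.4, 19.3 and 18.3 TPM (2.06 ± 0.14) and GALNT3 from 0.407, 0.186 and 0.167 TPM to 2.02, 1.59 and 2.302 TPM (1.24 ± 0.17), whereas GALNT14 (-0.82 ± 0.10) and GALNT18 (-0.64 ± 0.08) fell. Among markers of the triple-negative and breast epithelial state, 5 of 9 rose, or 3 without DOX library 1, and 4 fell. The luminal factor GATA3 was among those that rose (0.62 ± 0.13).

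**Figure D4:**
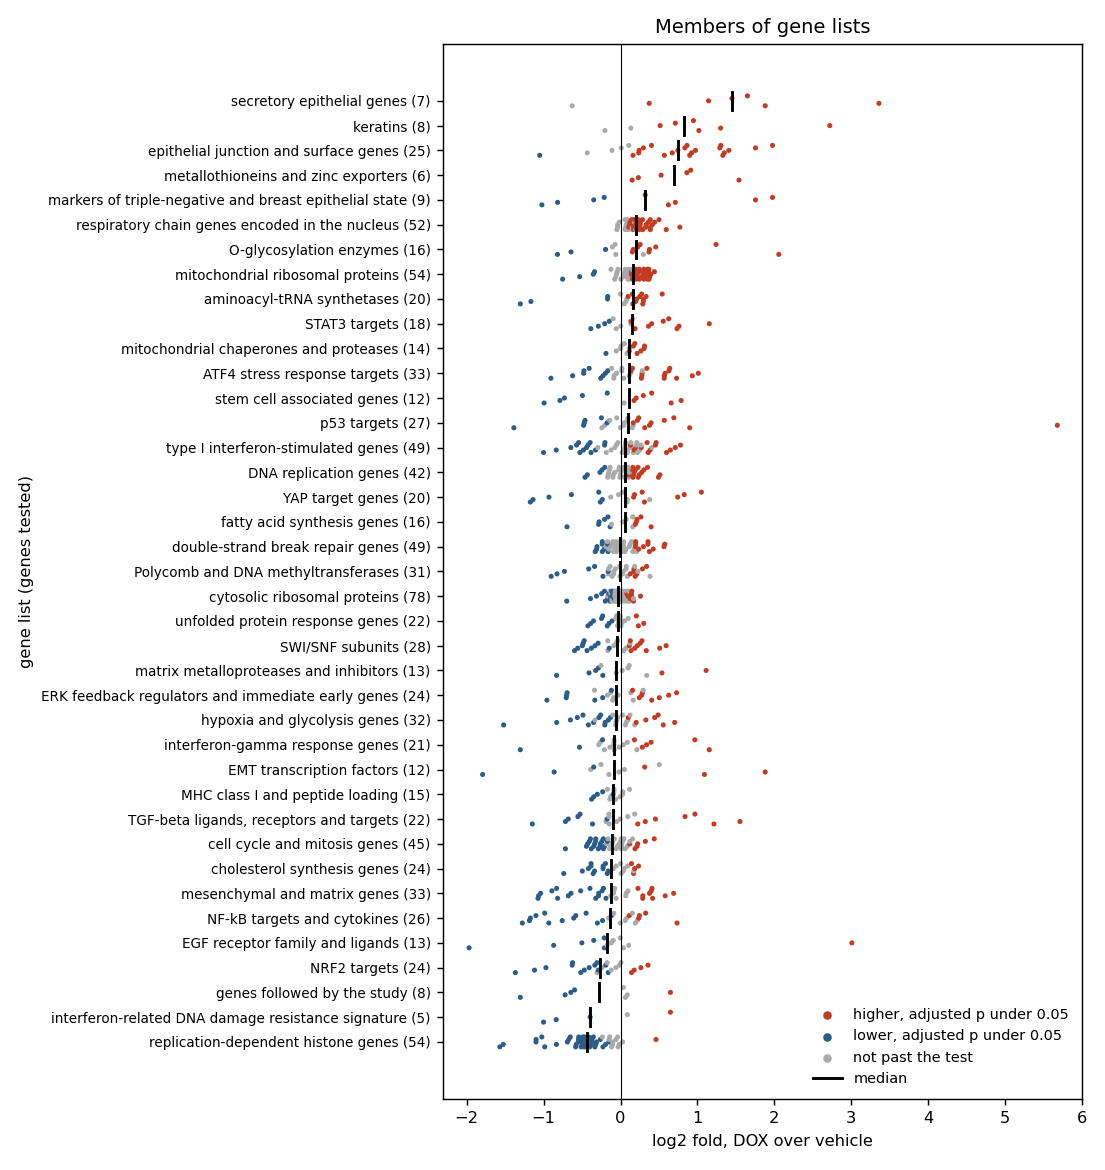
Log2 folds (DOX over vehicle) of the tested members of every list with at least 5 of them, 1 point per gene, red where higher and blue where lower past the test, with the median as a black bar and the number tested in brackets. The secretory, keratin and junction lists lie highest, with medians of 1.45, 0.83 and 0.75, and the replication-dependent histones lowest at -0.44.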

How the data were processed

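RNA was extracted from triplicate cultures with a column kit and sequenced after stranded, poly(A)-selected library preparation. The submitters' processing notes name STAR, GRCh38 and DESeq2. For the annotation, the read counter, its use of the strand and the program behind TPM, the details are not given in the sources at hand. The authors deposited a table of TPM per library for 25557 genes, with each column summing to 1 fixed total, and a table of DESeq2 results. From the latter only the mean normalized count per gene, a signal pooled by the authors over all 6 libraries, was used, as a guide to depth, and its fold changes and p-values were not used. TPM holds no depth, so values carry no counting interval. Summed over 18912 genes, the mean normalized counts deposited by the authors came to 11836443.

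Genes with at least 1 TPM in at least 3 of 6 libraries (13229) were analysed as log2(TPM + 1) with limma 3.58.1 in R 4.3.3 (lmFit, eBayes with a trend, two-sided, Benjamini-Hochberg adjustment over all tested genes). The prior degrees of freedom were 4.98. Identical columns numbered 0. The script was tested on simulated data with known changes. Positions came from GENCODE 29, which matched 12539 tested genes, and promoters from RefSeq. Genes keep the older symbols of the table (WARS, DDX58, HIST1H names).

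The text names the genes followed by the study, the 15 largest folds in each direction among called genes without overlap (short noncoding RNAs and clone or LOC symbols left out), up to 4 genes with the largest folds past the test in each of 44 lists, and others stated to be chosen after seeing their values. Some genes that this rule selects are not reported here. The comparison and the lists were chosen with earlier results of these data known, and 4 more lists were added after seeing the data. Alternatives were another pseudocount, a stricter filter and none, removal of short noncoding RNAs, median and quantile scaling, a replicate block, eBayes without a trend, array weights and leaving out each library.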

Additional observations from a re-analysis of the deposited data

How the results depend on the processing

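MUC1 stayed lower past the test under all settings in which it was tested, which leaves out the filter on a mean of at least 5 TPM, and leaving out each library in turn gave log2 folds from -0.83 to -0.64. Without 1 library the genes called higher numbered 166 to 182 and those called lower 173 to 197, and by adjusted p alone 3066 to 3433 rose and 2629 to 3053 fell. A pseudocount of 0.1 gave 269 called higher and 353 lower, and 349 of the 355 called genes were among them. A mean of at least 5 TPM tests fewer genes and gave 102 and 109, and all 211 were among the 355. The direction turned for genes that did not pass the test, and the cause was not tested: HLA-DMA was at 0.0019 and ESAM at 0.0557 with quantile normalization, ESAM at 0.0329 with array weights and at 0.0364, 0.0332 and 0.0018 without vehicle library 2, vehicle library 3 and DOX library 2 (range without 1 library -0.1096 to 0.0364), and IFIH1 at -0.0078 without vehicle library 1 (range -0.0078 to 0.1259).

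Same-numbered vehicle and DOX libraries did not deviate together (correlations of 0.053, -0.036 and 0.006), so the numbers were not taken as pairs. A fit with the replicate block called 178 higher and 181 lower, including all 355, and 3491 rose and 2977 fell by adjusted p. Under the block IFIT1 no longer passed (-0.39, adjusted p = 0.0642). It also did not pass with a pseudocount of 0.1, no filter, quantile normalization or array weights (0.0513 to 0.0865). RAD51D did not pass with no filter, without short noncoding RNAs or a trend, or with median scaling or array weights (0.0532 to 0.0938). SDF2L1 did not pass with no filter, with quantile normalization or without a trend (0.067 to 0.0988). RPS21 did not pass with quantile normalization (0.0633). Of the named gene folds under all alternatives, 2546 kept their direction and side of the threshold, 34 no longer passed (8 genes) and 1 newly passed. Counts in lists that moved by over 1.5 times, beside those given above, came with the filter on a mean of at least 5 TPM, which tests fewer members (type I ISGs lower 9 in place of 14, the DNA damage resistance signature lower 0 in place of 3, keratins higher 3 in place of 6, stem cell genes lower 2 in place of 5, metalloproteases higher 0 in place of 2, breast markers higher 2 in place of 5). Without a trend 4 cytosolic ribosomal genes rose in place of 9 and 9 fell in place of 16, and with no filter 5 rose and 2 synthetases fell in place of 4. The count of keratins lower was 1 in place of 0 with a pseudocount of 0.1, without short noncoding RNAs, without a trend and with array weights, and under the block 1 MHC class I gene was higher in place of 0. Mitochondrial chaperones lower numbered 2 with quantile normalization and 0 under the block, without a trend and with no filter, in place of 1. Depth limits the low genes most: MUC1, IFI44, IFIT3, LCN2 and several lincRNAs rested on few reads. Mean normalized counts were also low for AKR1C1 (11.6), ID3 (13.9), MMP3 (14.6), NRG2 (15.2), GALNT3 (17.9) and MMP1 (18.9). The same limit holds for KRT15 (31.0), KRT6A (34.2), CXCL8 (35.2) and CDH1 (40.9).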

Other observations

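The genes below were grouped after their values were seen, so their counts are descriptions. Besides COL17A1, other genes of hemidesmosomes, the junctions that hold epithelial cells to the basement membrane, were higher in DOX. Of 9 such genes and chains of their epithelial laminin, 7 rose and 1 fell, with 3 called higher and a median log2 fold of 0.63. Among all tested genes 27.0% rose, 23.4% fell and 1.34% were called higher. COL17A1, a called member, passed the filter through DOX alone, so it had to differ and the counts carry no test. LAMB3, a laminin chain, went from 9.63, 10.7 and 11.1 TPM in vehicle to 28.5, 28.4 and 28.5 TPM in DOX (1.36 ± 0.06). Another chain, LAMA3, did not pass the test (0.32 ± 0.15, adjusted p = 0.0979). The integrin gene ITGB4 rose from 51.4, 43.9 and 49.1 TPM to 73.1, 76.3 and 76.1 TPM (0.63 ± 0.06), and the plakin DST fell (-0.40 ± 0.06).

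Ligands of NKG2D, the activating receptor by which natural killer cells recognize stressed cells, went both ways, with 2 of 8 higher and 3 lower. Shares over all tested genes were 27.0% higher and 23.4% lower. ULBP2 went from 56.1, 60.7 and 55.03 TPM to 21.8, 20.8 and 16.3 TPM (-1.51 ± 0.10), and RAET1E (-1.07 ± 0.17) and RAET1G (-0.77 ± 0.11) fell. RAET1L (0.98 ± 0.17) and MICB (0.41 ± 0.08) rose. Members of this family are close copies, so reads could be exchanged among them.

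PSMB5, a catalytic subunit of the proteasome core, went from 183, 176 and 164 TPM to 66.99, 66.4 and 68.9 TPM (-1.36 ± 0.05), while the other 13 core subunits lay between -0.09 (PSMA6) and 0.18 (PSMB6). AIMP2, a scaffold of the complex that holds several aminoacyl-tRNA synthetases, went from 215, 210.4 and 203 TPM to 76.7, 76.7 and 76.9 TPM (-1.44 ± 0.04), while its companions AIMP1 (-0.02 ± 0.04) and EEF1E1 (0.07 ± 0.12) did not pass the test. For both genes the 3 DOX libraries lay within a narrow range far under the vehicle libraries.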
